A study of Mus musculus with 8 samples.

Results

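The classical interleukin-1 family was followed in mouse back skin through 8 genes, those of the ligands Il1a, Il1b, Il18 and Il33, the receptor antagonist Il1rn, the signalling receptor Il1r1, its accessory chain Il1rap and the decoy receptor Il1r2. Members were the probe sets whose platform annotation gave 1 of these symbols and no other. This found 10 of 41345 probe sets, 3 of them for Il1rap and 1 for each of the others. All 8 genes were among the 22180 genes tested, and no member was lost to a filter.

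The study compared the skin of male mice treated with imiquimod (IMQ), a Toll-like receptor agonist in a cream that causes psoriasis-like inflammation, and asked what the IL-22 receptor and the peptide alloferon do to that response. Per the labels, 83.3 mg of 5% cream was put on every day over days 1 to 7, with a vehicle or alloferon cream given 6 hours later. There were 8 arrays, 1 for each label, which form 4 pairs that differ in IMQ alone. The KO Allo pair is KO_IMQ_Allo and KO_Allo (alloferon), the KO plain pair KO_IMQ and KO_CTRL, the KO B pair KO_IMQ_B and KO_CTRL-B, and the WT pair (WT plain) WT_IMQ and WT_CTRL. WT animals were C57BL/6, and KO animals carried the label of the strain B6.Cg-Il22ra1tm1.1Koll/J. The labels name no Cre for that allele, no age, no treatment of the arrays without IMQ beyond the label itself, and no meaning of the letter B. The design states 4 mice per group, and the labels do not tell if an array held RNA of 1 mouse or of several.

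IL-1 alpha and IL-1 beta bind the same receptor, IL-1R1, which then recruits the accessory chain IL-1RAcP and signals through MyD88 to NF-kB. IL-1 alpha is held in keratinocytes and is active as it is released, whereas IL-1 beta and IL-18 are made as precursors that caspase-1 cuts in an inflammasome. IL-33 is a nuclear protein of barrier cells that acts through ST2 and the same accessory chain once cells are damaged. The antagonist encoded by Il1rn occupies IL-1R1 without signalling, and the type 2 receptor encoded by Il1r2 binds IL-1 without signalling.

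The 250 bases before the start site are shown for the 4 members whose IMQ difference passed the test over the 4 pairs or without the KO Allo pair, because they are the stretch nearest to the transcript that the arrays measure. The sequences are from RefSeq, build GRCm38.p6, written 5′ to 3′ on the gene's own strand. They lie at chr2:129309973-129310222 (minus strand) for Il1a, chr2:129371140-129371389 (minus strand) for Il1b, chr19:29924863-29925112 (plus strand, the first of 2 listed starts) for Il33 and chr2:24336610-24336859 (plus strand, the first of 3 listed starts) for Il1rn. Capitals mark matches on either strand to the TATA box letters TATAAA, the AP-1 letters TGANTCA, the C/EBP letters TTNNGNAA and the NF-kB consensus.
Il1a: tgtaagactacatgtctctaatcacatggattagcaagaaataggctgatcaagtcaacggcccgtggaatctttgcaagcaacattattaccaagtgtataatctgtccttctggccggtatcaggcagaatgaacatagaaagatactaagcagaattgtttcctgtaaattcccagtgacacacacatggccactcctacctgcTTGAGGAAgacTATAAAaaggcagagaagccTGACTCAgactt
Il1b: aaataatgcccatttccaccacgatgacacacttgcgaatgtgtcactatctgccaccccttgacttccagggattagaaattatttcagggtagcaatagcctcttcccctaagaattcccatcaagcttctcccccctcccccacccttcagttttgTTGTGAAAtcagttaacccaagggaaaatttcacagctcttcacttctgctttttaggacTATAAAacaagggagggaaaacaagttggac
Il33: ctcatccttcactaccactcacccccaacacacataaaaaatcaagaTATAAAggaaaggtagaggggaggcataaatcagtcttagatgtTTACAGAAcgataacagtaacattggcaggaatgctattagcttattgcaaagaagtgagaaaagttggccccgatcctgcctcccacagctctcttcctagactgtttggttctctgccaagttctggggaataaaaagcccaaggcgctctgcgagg
Il1rn: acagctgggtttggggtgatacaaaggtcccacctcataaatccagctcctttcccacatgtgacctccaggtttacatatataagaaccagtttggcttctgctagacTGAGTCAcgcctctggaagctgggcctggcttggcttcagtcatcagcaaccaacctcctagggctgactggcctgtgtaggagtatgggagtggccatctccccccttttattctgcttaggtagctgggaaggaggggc
TATAAA began at position -32 from the Il1a start and at position -31 from the Il1b start, whereas in the Il33 window shown it began at -203, and before the second listed Il33 start at -29. The AP-1 letters occurred at -12 in Il1a and at -141 in Il1rn, and the C/EBP letters at -43 in Il1a, -91 in Il1b and -159 in Il33. Of 32851 listed promoters of the same length, 12.4% held TATAAA, 6.75% the AP-1 letters, 36.8% the C/EBP letters and 3.9% the NF-kB consensus, which none of these 4 windows held. These are letter matches, not measured binding. Il1a and Il1b are direct neighbours on chromosome 2, and Il1rn lies next to the cluster of the IL-36 genes on the same chromosome.

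Values are log2 expression levels after RMA, a method that puts all arrays on 1 scale, so a difference of 1 is a 2-fold difference in signal and levels of different genes cannot be ranked against each other. Array medians lay between 5.68 and 5.73. Il22ra1, the gene targeted in the KO animals, read 9.40, 8.88, 8.90 and 8.64 on KO_IMQ_Allo, KO_IMQ, KO_IMQ_B and WT_IMQ, against 8.92, 8.91, 8.59 and 8.23 on KO_Allo, KO_CTRL, KO_CTRL-B and WT_CTRL. It was thus not lower on the arrays labelled KO than on the WT arrays, and whether its probes lie in the deleted stretch is not given, so KO and WT below are the labels. The arrays carried signal for the measured keratinocyte markers of skin, Krt14 and Krt10 among them, none of which read below 9.097 on any array. The KO Allo pair stood apart from the other pairs for Il1b and Il33, so each member's IMQ difference over the 4 pairs is given with and without it. In whole skin, fewer cells of a type and less RNA per cell cannot be told apart.

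Over the 4 pairs, Il1a and Il1rn rose with IMQ, and no member fell. Il1b and Il33 had large differences in the 3 pairs without alloferon and differences of opposite sign in the alloferon pair, so they did not pass over all 4. Il18 and Il1rap were higher with IMQ in 4 of 4 pairs by smaller amounts that did not pass, and Il1r1 and Il1r2 did not pass either. The members' median difference was 0.79 log2 units, against -0.01 over all genes. With limma and Benjamini-Hochberg adjustment, 2 of 8 members passed an adjusted p of 0.05, against 3.09% of all genes in either direction and 1.9% of all genes in the higher direction. Without the KO Allo pair, 4 of 8 members passed, all of them higher, against 5.89% of all genes in either direction and 3.72% in the higher direction. Since that pair was singled out by its Il1b and Il33 values, leaving it out favours calls of these members. The shares of all genes carry no such choice, so they are no fair yardstick for that count.

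**Figure D1:**
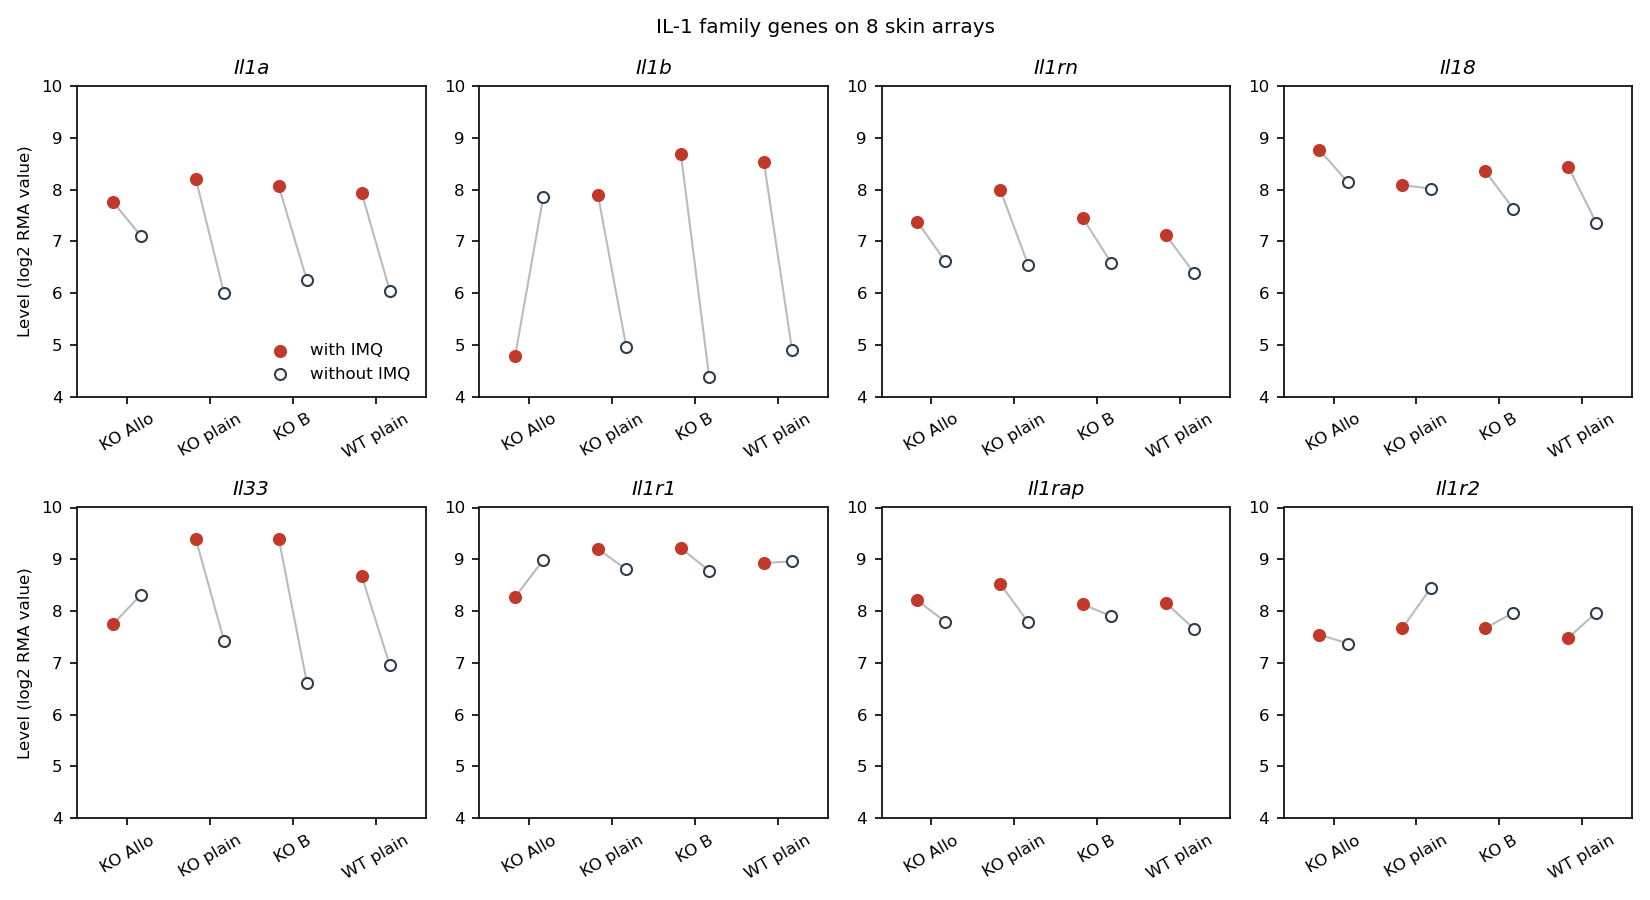
Level of each of the 8 genes (log2 RMA signal, y axis) on the 8 arrays, with IMQ arrays left of arrays without IMQ and 1 line for each pair. Il1a, Il1rn and Il1rap separate the 2 kinds of array, and the Il1b and Il33 lines of the KO Allo pair slope the other way from the remaining 3.

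Il1a read 7.76, 8.20, 8.07 and 7.93 on KO_IMQ_Allo, KO_IMQ, KO_IMQ_B and WT_IMQ, against 7.10, 6.00, 6.25 and 6.04 on KO_Allo, KO_CTRL, KO_CTRL-B and WT_CTRL. All 4 IMQ arrays lay above all 4 others, and KO_Allo was the highest of the arrays without IMQ. The mean was 7.99 ± 0.19 with IMQ and 6.35 ± 0.51 without it (SD, n = 4 arrays each). The rise over the 4 pairs was 1.64 ± 0.24 log2 units (SE over pairs; 3.12-fold; limma, adjusted p = 0.0268). The pair differences were 0.66 in the KO Allo pair, 2.21 in the KO plain pair, 1.82 in the KO B pair and 1.89 in the WT pair, so the KO Allo pair had the smallest. The rise was 1.97 ± 0.12 when the KO Allo pair was left out (adjusted p = 0.00184). Il1a did not pass when any 1 of the other 3 pairs was left out (limma, adjusted p = 0.0815 to 0.144) or when all 41345 probe sets were tested (adjusted p = 0.0797). Since the labels do not say that arrays hold separate animals, p-values here reflect only how these arrays vary, and that variation may be technical.

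Il1b, the inflammasome-processed ligand, read 4.78, 7.89, 8.68 and 8.54 on KO_IMQ_Allo, KO_IMQ, KO_IMQ_B and WT_IMQ, against 7.86, 4.96, 4.39 and 4.91 on KO_Allo, KO_CTRL, KO_CTRL-B and WT_CTRL. KO_IMQ, KO_IMQ_B and WT_IMQ were high and the other IMQ array, KO_IMQ_Allo, lay within the range of the 3 low arrays, while KO_Allo lay just below KO_IMQ, so the groups overlapped. The pair differences were 2.93 (KO plain), 4.29 (KO B) and 3.63 (WT), and -3.08 in the KO Allo pair. Over the 4 pairs this gave 1.94 ± 1.14 log2 units (limma, adjusted p = 0.42). Without the KO Allo pair Il1b rose by 3.62 ± 0.25 log2 units, or 12.3-fold (adjusted p = 0.00226), the highest value of any member there.

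Il33, the barrier alarmin, read 7.75, 9.39, 9.40 and 8.68 on KO_IMQ_Allo, KO_IMQ, KO_IMQ_B and WT_IMQ, against 8.31, 7.43, 6.61 and 6.95 on KO_Allo, KO_CTRL, KO_CTRL-B and WT_CTRL. KO_Allo was the highest of the arrays without IMQ and KO_IMQ_Allo the lowest of those with it, so that the groups overlapped by this 1 pair. The pair differences were -0.56 (KO Allo), 1.96 (KO plain), 2.79 (KO B) and 1.73 (WT). The difference over the 4 pairs was 1.48 ± 0.49 (limma, adjusted p = 0.169). Without the KO Allo pair Il33 rose by 2.16 ± 0.21 log2 units, or 4.46-fold (adjusted p = 0.00476).

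Il18, the other caspase-1 substrate, read 8.76, 8.09, 8.35 and 8.44 on KO_IMQ_Allo, KO_IMQ, KO_IMQ_B and WT_IMQ, against 8.15, 8.02, 7.63 and 7.36 on KO_Allo, KO_CTRL, KO_CTRL-B and WT_CTRL. IMQ was the higher array in each pair, but KO_IMQ lay below KO_Allo and the groups overlapped. The pair differences ran from 0.07 in the KO plain pair to 1.09 in the WT pair. The difference over the 4 pairs, 0.62 ± 0.16, did not pass (limma, adjusted p = 0.1), and it was 0.63 ± 0.20 without the KO Allo pair (adjusted p = 0.141).

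Il1rn, whose product blocks IL-1R1, read 7.38, 7.996, 7.44 and 7.12 on KO_IMQ_Allo, KO_IMQ, KO_IMQ_B and WT_IMQ, against 6.61, 6.54, 6.58 and 6.38 on KO_Allo, KO_CTRL, KO_CTRL-B and WT_CTRL. All IMQ arrays lay above all others, the arrays without IMQ lay close together, and the 2 alloferon arrays kept to their groups. The pair differences were 0.77 (KO Allo), 1.46 (KO plain), 0.86 (KO B) and 0.73 (WT). The rise over the 4 pairs was 0.95 ± 0.14 log2 units, or 1.94-fold (limma, adjusted p = 0.0272), and 1.02 ± 0.16 without the KO Allo pair (adjusted p = 0.0239). The call did not hold without the WT pair (adjusted p = 0.121), without the KO B pair (adjusted p = 0.133) or over all probe sets (adjusted p = 0.0797).

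Il1r1, the signalling receptor, read 8.27, 9.20, 9.21 and 8.93 on KO_IMQ_Allo, KO_IMQ, KO_IMQ_B and WT_IMQ, against 8.99, 8.81, 8.78 and 8.96 on KO_Allo, KO_CTRL, KO_CTRL-B and WT_CTRL. Only KO_IMQ_Allo stood low, and the other 7 arrays lay between 8.78 and 9.21. The difference over the 4 pairs was 0.02 ± 0.20, with a 95% interval of -0.45 to 0.49 (limma, adjusted p = 0.974). Its sign is not fixed by these data, since it was -0.10 without the KO plain pair, -0.12 without the KO B pair and 0.27 without the KO Allo pair.

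Il1rap, the accessory chain shared by the IL-1 and IL-33 receptors, read 8.20, 8.53, 8.13 and 8.16 on KO_IMQ_Allo, KO_IMQ, KO_IMQ_B and WT_IMQ, against 7.79, 7.78, 7.90 and 7.65 on KO_Allo, KO_CTRL, KO_CTRL-B and WT_CTRL. The IMQ arrays all lay above the others. The difference of 0.47 ± 0.11 did not pass (limma, adjusted p = 0.0743), though it passed at an adjusted p of 0.045 when genes below the median level were left out and of 0.0499 when pairing was ignored. The 2 dimmer Il1rap probe sets, at means of 3.03 and 4.07 over the 8 arrays, differed by 0.21 ± 0.10 and 0.20 ± 0.10 with adjusted p of 0.405 and 0.412 in a fit of all probe sets, where the bright one had 0.155. All 3 differences were positive. With the KO Allo pair left out the bright probe set measured 0.49 ± 0.13 (limma over genes, adjusted p = 0.0977).

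Il1r2, the decoy, read 7.54, 7.67, 7.67 and 7.48 on KO_IMQ_Allo, KO_IMQ, KO_IMQ_B and WT_IMQ, against 7.37, 8.44, 7.97 and 7.97 on KO_Allo, KO_CTRL, KO_CTRL-B and WT_CTRL. The 4 IMQ arrays were close together and below 3 of the other arrays, but above KO_Allo. The pair differences were 0.17 (KO Allo), -0.77 (KO plain), -0.30 (KO B) and -0.49 (WT), which gave -0.35 ± 0.16 over the 4 pairs (limma, adjusted p = 0.299) and -0.52 ± 0.13 without the KO Allo pair (adjusted p = 0.0814). All IMQ arrays lay above all others for 3 of 8 members, against 5.96% of all genes. The higher array of every pair was the IMQ one for 4 of 8 members, against 12.6% of all genes.

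**Figure D2:**
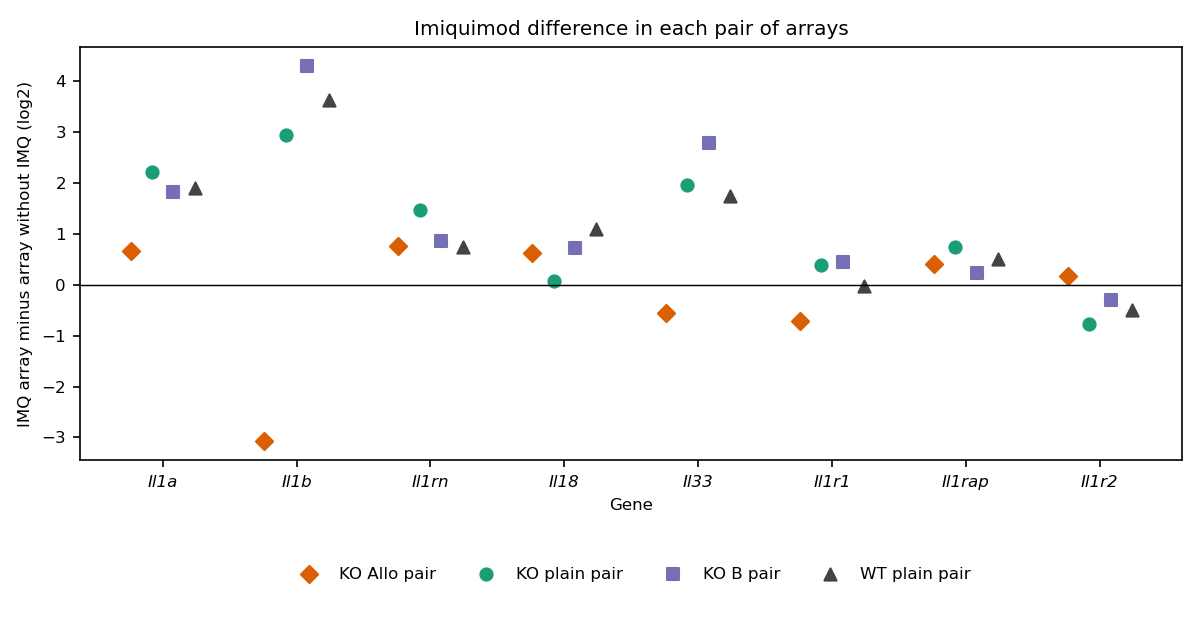
IMQ minus no-IMQ difference (log2 units) of each gene in each of the 4 pairs, with a separate symbol for each pair. Il1b and Il33 have the widest spread, set by the KO Allo pair at -3.08 and -0.56, whereas the pairs of Il1rn and Il1rap lie close together.

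The KO Allo pair was set against the other 3 pairs to ask whether its IMQ difference was unlike theirs. Only this 1 pair carries alloferon, so it gives no spread of its own. Errors and intervals for this contrast reflect only how the other 3 pairs vary, 1 of them WT. The KO Allo pair was also singled out by its Il1b and Il33 values. Each gene's value here is its IMQ difference in the KO Allo pair minus that in the others. Il1b had the lowest such value of all 22180 genes, at -6.70 ± 0.50 log2 units with a 95% interval of -7.90 to -5.49. It had the third smallest p but did not pass (limma, adjusted p = 0.0613), and 0 of 8 members passed, against 0.00902% of all genes, which are Mmp13 (a matrix metalloproteinase, -5.27 ± 0.29) and Sprr1b (a cornified envelope precursor, -3.67 ± 0.22). At an unadjusted p under 0.05 there were 1828 genes. Il1b passed under 5 alternatives (adjusted p from 0.00705 to 0.0493) and did not under the others run, where it reached 0.303 without the WT pair and 0.409 over all probe sets.

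Il33 followed at -2.72 ± 0.42 (adjusted p = 0.195), Il1a at -1.31 ± 0.25 (adjusted p = 0.252) and Il1r1 at -0.98 ± 0.27 (adjusted p = 0.408). Il1r2 measured 0.69 ± 0.26 (adjusted p = 0.574). For Il1rn, Il18 and Il1rap the values were -0.25 ± 0.33, -0.01 ± 0.40 and -0.08 ± 0.27. Their 95% intervals ran from -1.06 to 0.55, from -0.99 to 0.96 and from -0.74 to 0.57. A sign opposite to the other 3 pairs was found in the KO Allo pair for Il1b, Il33 and Il1r2. Of all genes, 7.92% were higher in the other 3 pairs and lower in the KO Allo pair, as Il1b and Il33 were, and 8.3% ran the other way, as Il1r2 did. Since Il1b and Il33 singled out that pair, these shares are no fair yardstick for them.

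Both arrays of the alloferon pair contributed to the Il1b value. KO_IMQ_Allo was 8.62-fold below KO_IMQ (-3.11 log2 units) and 14.9-fold below KO_IMQ_B (-3.90). KO_Allo was 7.46-fold above KO_CTRL (2.90) and 11.1-fold above KO_CTRL-B (3.48). These compare 1 array with 1 and have no replicate check. For Il33, KO_IMQ_Allo lay below the same arrays by -1.64 and -1.65, and KO_Allo above its arrays by 0.88 and 1.70. KO_IMQ_Allo was at least 1 log2 unit below both other KO arrays with IMQ for 2 of 8 members (Il1b and Il33), against 0.307% of all genes. KO_Allo was at least 1 log2 unit above both other KO arrays without IMQ for Il1b alone of the members, again against 0.307% of all genes. The alloferon arrays were singled out by their Il1b and Il33 values, so these shares are no fair yardstick for the counts. Il1r1 differed on the IMQ side, at -0.93 and -0.94 for KO_IMQ_Allo, with 0.18 and 0.21 for KO_Allo. Il1a differed more on the other side, at 1.10 and 0.85 for KO_Allo, with -0.44 and -0.31 for KO_IMQ_Allo.

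Most genes called without the KO Allo pair kept their sign in it, which does not tell if the size was kept. Krt14 measured 0.09 there, against 1.62, 1.51 and 1.36 in the KO plain, KO B and WT pairs. Lcn2 measured 2.367 there, against 2.609, 2.005 and 1.198. Of 826 genes that rose without that pair, 623 had the same sign in it and 203 the opposite sign, 14 of them by 1 log2 unit or more, and their median there was 0.32. Of 481 genes that fell, 388 had the same sign in it, with a median of -0.35.

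**Figure D3:**
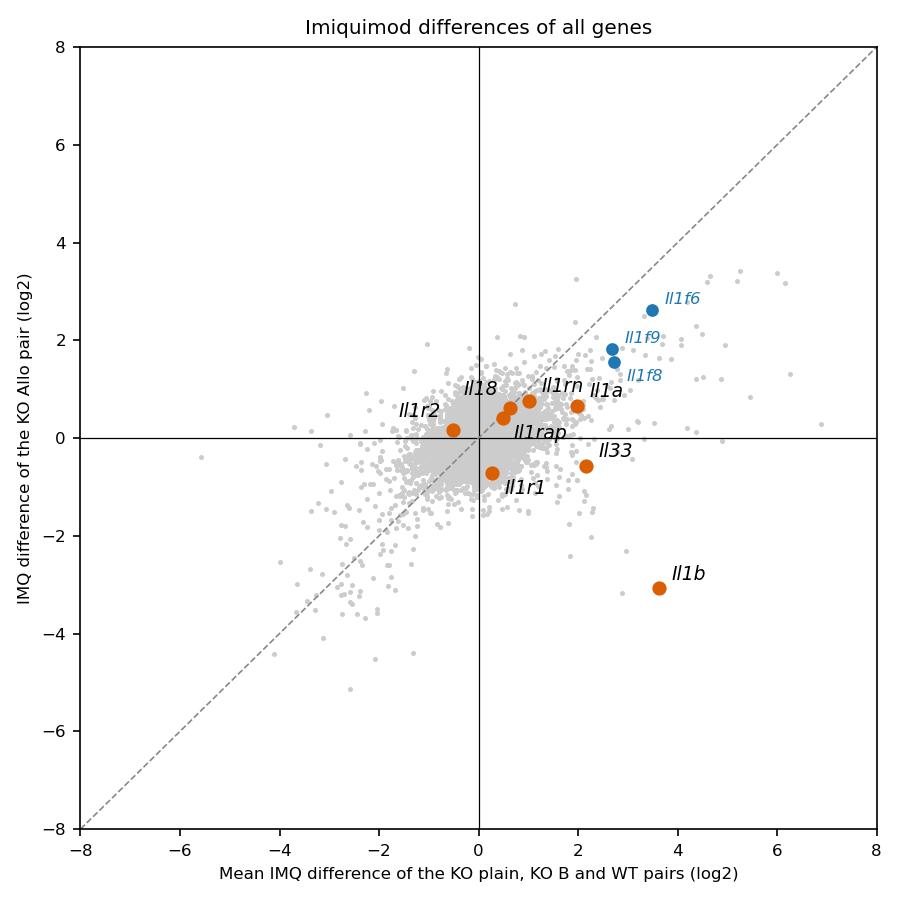
IMQ difference in the KO Allo pair (y axis, log2 units) against the mean IMQ difference of the other 3 pairs (x axis, log2 units) for all genes, with the members and the IL-36 ligands named and a dashed line where both are equal. Il1b lies far below 0 on the y axis at 3.62 on the x axis, and Il33 just below 0, while the IL-36 ligands lie above 0 on both axes.

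Within the 3 KO pairs alone no member and no gene passed (limma, 0.0% of all genes; 3093 genes at an unadjusted p under 0.05). Il1a measured 1.56 ± 0.30 (adjusted p = 0.144), Il1rn 1.03 ± 0.17 (adjusted p = 0.121), Il33 1.39 ± 0.62 (adjusted p = 0.406) and Il1b 1.38 ± 1.38 (adjusted p = 0.714). Without the KO Allo pair, Il1a rose by 2.01, Il1b by 3.61 and Il33 by 2.37 log2 units in the 2 remaining KO pairs (adjusted p = 0.0205, 0.0268 and 0.0273). That is 3 of 8 members, against 1.35% of all genes called. Here too the pair left out was singled out by its Il1b and Il33 values, so count and share are not alike.

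The difference between the KO and WT responses was tested next, since the series asks what the receptor adds. No member and no gene passed (limma, 0.0% of all genes; 914 genes at an unadjusted p under 0.05). Il1b measured -2.25 ± 2.75 log2 units (95% interval -9.15 to 4.66), and -0.02 without the KO Allo pair. Il18 measured -0.62 ± 0.32 (interval -1.42 to 0.19), with pair differences of 0.62, 0.07 and 0.73 in KO pairs against 1.09 in the WT pair. Il1rn measured 0.30 ± 0.33, Il1r2 0.19 ± 0.39, Il1a -0.33 ± 0.60 and Il33 -0.34 ± 1.24. The intervals leave room for differences of over 1 log2 unit for all members but Il1rap, and the single WT pair gives no spread of its own.

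Average levels over IMQ status were compared as well. KO plain arrays against WT arrays gave no called member and no called gene (limma, 0.0% of all genes; 1395 genes at an unadjusted p under 0.05). Il1rn was the member with the smallest p, at 0.52 ± 0.20 (adjusted p = 0.788), and Il33 measured 0.59 ± 0.69. For the KO Allo arrays against the other KO arrays, no member and no gene passed (0.0% of all genes; 1263 at an unadjusted p under 0.05). Il1r2 measured -0.48 ± 0.19 and Il18 0.43 ± 0.20 (adjusted p = 0.868 for each). Il1b averaged -0.16 ± 1.39 there, as its 2 alloferon arrays differed from the other KO arrays in opposite directions.

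Counts in the lists below stand beside these shares. Over the 4 pairs 3.09% of all genes were called, 1.9% as higher, and without the KO Allo pair 5.89%, 3.72% as higher. That pair was singled out by its Il1b and Il33 values, so the latter shares are no fair yardstick for genes that vary like them. The receptors of IL-18 and IL-33 and the orphan chains were measured through 7 of 8 listed genes, and 0 rose or fell over the 4 pairs (limma; 2 at an unadjusted p under 0.05; median 0.11). Il1rl1, which encodes the IL-33 receptor ST2, has no single-symbol probe set and was not analysed here. The largest differences were those of the IL-18 receptor chains Il18rap, at 0.95 ± 0.24 (adjusted p = 0.092), and Il18r1, at 0.31 ± 0.12. Il18rap rose without the KO Allo pair, by 1.19 (adjusted p = 0.0377).

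Of 12 measured MyD88 signalling genes, 1 rose and 0 fell, with or without the KO Allo pair (limma; median 0.01 over the 4 pairs). This was Irak3, a kinase-like inhibitor of the pathway, at 0.73 ± 0.10 (adjusted p = 0.0209), and its pair differences of 0.61, 0.81, 0.61 and 0.88 in the KO Allo, KO plain, KO B and WT pairs lay close together. Of 13 measured inflammasome and processing genes, 2 rose and 0 fell, with or without the KO Allo pair (median 0.36 over the 4 pairs). They were the sensors Aim2, at 1.01 ± 0.17 (adjusted p = 0.0379), and Nlrc4, at 0.60 ± 0.11 (adjusted p = 0.0412). The protease gene Casp1 measured 0.36 ± 0.09 (adjusted p = 0.0934). Nlrp3, the sensor best known for IL-1 beta processing, had the largest contrast in that list, with -1.46 in the KO Allo pair against 0.29, 0.96 and 1.20 in the KO plain, KO B and WT pairs (difference -2.28 ± 0.38, adjusted p = 0.217).

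Of 14 genes known to respond to IL-1, 3 rose over the 4 pairs, against 1.9% of all genes, and 0 fell (limma; median 0.52). These were the antimicrobial siderophore binder Lcn2 at 2.05 ± 0.22, the RNase gene Zc3h12a at 1.45 ± 0.17 and the NF-kB cofactor Nfkbiz at 0.61 ± 0.10. With the KO Allo pair left out 5 rose, against 3.72% of all genes. They were the neutrophil chemokine Cxcl2 at 2.01, the prostaglandin synthase Ptgs2 at 2.26, the acute phase gene Saa3 at 4.90, and Lcn2 and Zc3h12a. In the KO Allo pair Cxcl2 measured -1.53, Ptgs2 -2.03 and Saa3 -0.06, against 2.37 for Lcn2 and 1.78 for Zc3h12a. Thus the listed genes with a positive difference in the other pairs included both kinds, ones with the sign of Il1b in the KO Allo pair and ones with the sign of Il1rn.

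The IL-36 family, relatives of IL-1 that keratinocytes make, had 5 measured genes. Of these, 4 rose over the 4 pairs, against 1.9% of all genes, and 4 without the KO Allo pair, against 3.72%. They were Il1f6 (IL-36 alpha) at 3.27 ± 0.22, Il1f9 (IL-36 gamma), Il1f8 (IL-36 beta) and the antagonist Il1f5 at 1.49 ± 0.18, and Il1f10 measured -0.40 ± 0.12 (adjusted p = 0.14). In the KO Allo pair the first 4 measured 2.62, 1.82, 1.56 and 0.91, each positive, beside -3.08 for Il1b. Their values in the KO Allo pair minus the other pairs lay between -1.17 and -0.77, with adjusted p from 0.476 to 0.662.

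**Figure D4:**
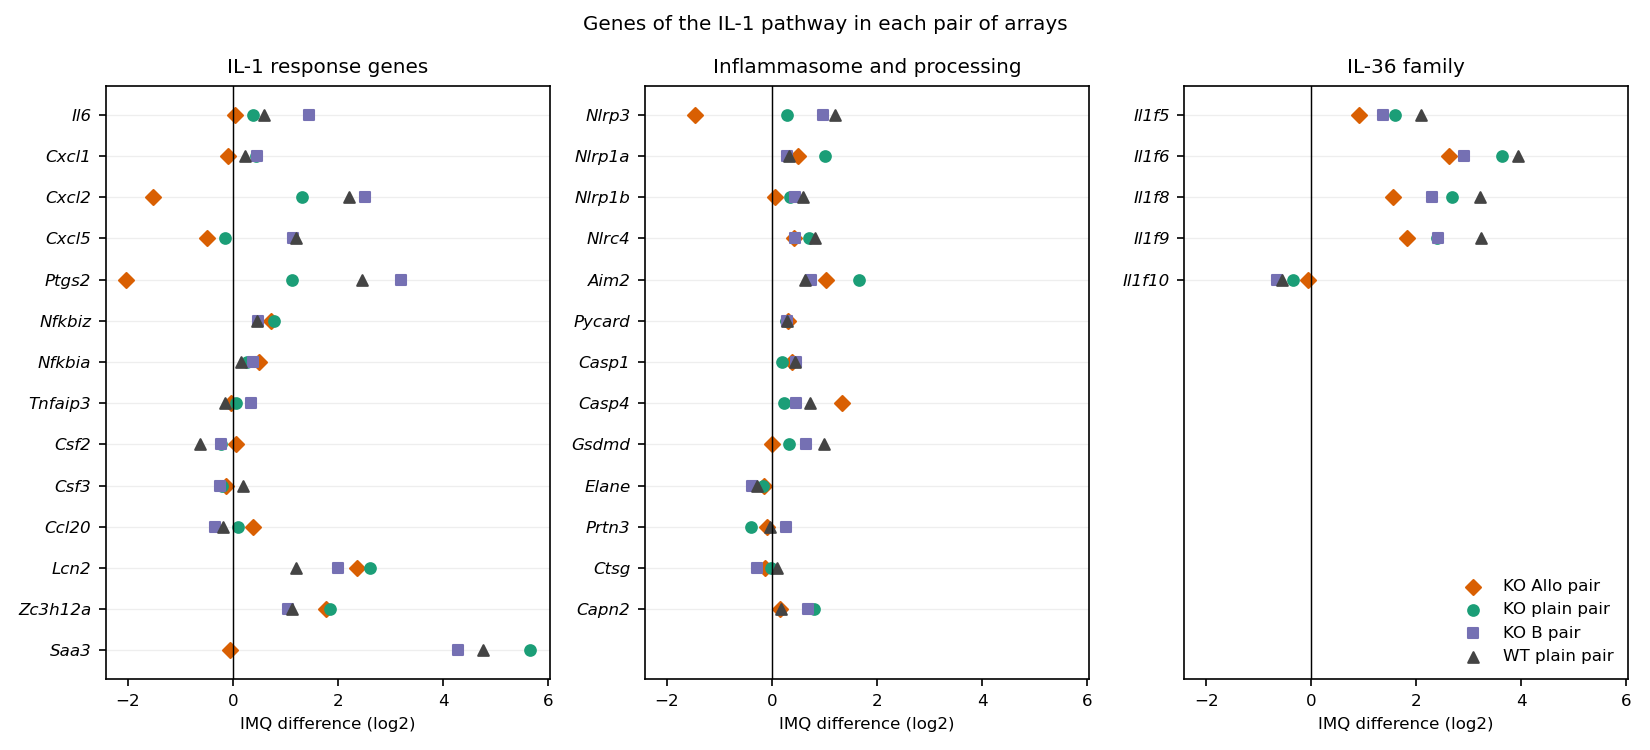
IMQ difference in each of the 4 pairs (log2 units) for the measured genes of 3 IL-1 pathway lists, with 1 symbol for each pair. Cxcl2, Ptgs2 and Nlrp3 are negative in the KO Allo pair and positive in the other 3, whereas Il1f6, Il1f8, Il1f9, Lcn2 and Zc3h12a are positive in all 4.

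Some markers of immune cells were negative in the KO Allo pair and positive in each of the other 3 pairs, as Il1b and Il33 were. They were 3 of 8 monocyte and macrophage markers, 2 of 7 neutrophil markers and 5 of 6 mast cell markers, against 0 of 5 dendritic and Langerhans cell markers and 0 of 4 T cell markers. The pattern was not particular to immune cells, since 3 of 4 endothelium and 2 of 4 fibroblast markers had it. It was found for 0 keratinocyte, hair follicle, skeletal muscle and adipocyte markers, and for 7.92% of all genes. Of 8 monocyte and macrophage markers, 3 rose over the 4 pairs, against 1.9% of all genes. They were Adgre1 at 2.004 ± 0.23, Csf1r at 0.95 ± 0.18 and Lyz2 at 0.85 ± 0.13. Without the KO Allo pair 8 of 8 of these markers rose, against 3.72% of all genes. The log2 of their summed level was 11.8 to 12.4 with IMQ and 11.2 to 11.6 without it, and the KO Allo arrays, at 11.8 with IMQ and 11.6 without, were the lowest and the highest of their groups. In the KO Allo pair Adgre1 measured 1.20, Csf1r 0.24 and Lyz2 0.44, each positive. Cd14, a monocyte receptor, measured -1.04 in the KO Allo pair against 1.53, 1.77 and 2.11 in the KO plain, KO B and WT pairs.

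Of 7 neutrophil markers, 1 rose (Cxcr2, 1.99 ± 0.29), and Csf3r joined it without the KO Allo pair (2.20). In that pair Cxcr2 measured 0.78 and Csf3r -0.13. The remaining markers Ly6g, Camp, Ngp, Mpo and Retnlg measured 0.01, 0.04, 0.10, 0.22 and 0.82 over the 4 pairs and did not pass. Ly6g and Camp were dim, at no more than 3.705 and 4.291 on any array. The neutrophil sum was 8.97 to 9.79 with IMQ and 7.76 to 8.68 without it, with the KO Allo arrays, at 8.97 and 8.68, again the lowest and the highest. Such a sum weighs bright genes most, here Csf3r and Cxcr2, so it is not a reading of the whole list. The median level of the 7 markers overlapped, at 4.67 to 4.99 with IMQ and 4.56 to 4.95 without it. Of 6 mast cell markers 0 rose over the 4 pairs (limma; 1 at an unadjusted p under 0.05) and 2 without the KO Allo pair. The mast cell sum was 9.13 to 10.5 with IMQ and 8.95 to 9.86 without it, with KO_IMQ_Allo the lowest and KO_Allo the highest of its group. On a log2 signal scale no marker is at 0, and the lowest levels of a marker in the 3 lists were 5.83, 3.15 and 2.69. What part these cells have in the Il1b and Il33 values was not tested.

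Among the other marker lists, 6 of 6 hair follicle genes fell with IMQ (median -3.23), and in the KO Allo pair the median was -2.89, so those genes kept their sign there. Of 5 skeletal muscle genes 2 fell, Actn3 at -2.32 ± 0.45 and Mb at -1.06 ± 0.17, and 5 of 5 fell without the KO Allo pair. Of the basal and suprabasal keratinocyte, dendritic and Langerhans cell, T cell, fibroblast, endothelium and adipocyte markers (3, 4, 5, 4, 4, 4 and 4 measured) none passed over the 4 pairs (limma), while 2, 1, 1, 1, 0, 0 and 4 had an unadjusted p under 0.05. Without the KO Allo pair 1 basal, 1 suprabasal and 1 T cell marker rose, and 4 of 4 adipocyte markers fell. Their medians were 0.33, 0.15, -0.05, 0.16, 0.02, 0.23 and -0.77. The basal keratin gene Krt14 measured 1.15 ± 0.25 (limma, adjusted p = 0.0649), with 0.09 in the KO Allo pair against a mean of 1.499 in the other 3. Whether hair follicle or muscle content of the samples has a part in the members' values was not tested.

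The genes whose centred levels over the 8 arrays were nearest to each member, by root mean square difference, were listed for the 6 members that spanned at least 1 log2 unit. For Il1b, whose own root mean square around its mean was 1.77, they were the collagenase gene Mmp13 (0.57), the chemokine gene Ccl3 (0.62) and Ptgs2 (0.69). All 3 shared its negative value in the KO Allo pair, at -2.31, -3.17 and -2.03. They were picked over arrays that include this pair, so the shared sign is no separate finding. For Il33 (own value 0.99) they were the neutrophil growth factor receptor gene Csf3r (0.23), the interferon-inducible Ifi202b (0.23) and the lectin gene Clec4n (0.31).

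For Il1a (own value 0.89) the nearest were the kallikrein gene Klk8 (0.17), the sphingomyelinase gene Smpd3 (0.18) and Ms4a7 (0.19). For Il1rn (0.53) they were Tmem125 (0.11), the transcription factor gene Klf7 (0.12) and Tnfaip2 (0.12). For Il18 (0.42) they were the kallikrein gene Klk5 (0.12), the cornified envelope gene Hrnr (0.13) and the phosphatase gene Cdc14b (0.13), and for Il1r2 (0.32) they were Igfbp3 (0.10), Usp18 (0.12) and Sar1b (0.12). These likenesses are descriptions over 8 arrays that share the IMQ contrast.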

How the data were processed

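Total RNA of dorsal skin (100 ng per sample, per the labels) was measured on 8 Affymetrix arrays. The deposited values are log2 expression levels of 41345 probe sets, made by the authors with RMA. Affymetrix Power Tools and, with no stated role, R 3.3.2 are named as well, per the submitters' processing notes. RMA places all arrays on a common distribution, compresses differences of dim genes and removes a shift shared by most genes. There is no sequencing depth, and the number of arrays limits the precision.

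Of the probe sets, 23521 had 1 gene symbol, 1814 several and 16010 none. For the 1082 genes with several, the probe set of highest mean was kept, which left 22180 genes. Dim genes were not filtered out, and no pair of arrays held identical values. Tests used limma 3.58.1 in R 4.3.3 (lmFit, eBayes) with a level for each of 4 pairs and Benjamini-Hochberg adjustment over all 22180 genes at 0.05. Errors after ± are limma standard errors over pairs unless stated, and intervals are 95%. The spread includes true differences in response between pairs. The difference between the KO Allo pair and the others takes its spread from the other 3 pairs, and that between KO and WT from the KO pairs.

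The code was tested on simulated data. Alternatives were the mean of probe sets, no dim genes, a trended robust prior, median centring, B as a second KO array, all probe sets, each pair left out and no pair levels. The text names the 8 members, called genes of 5 pathway and 12 cell marker lists (otherwise up to 2 with the largest difference), and the 3 nearest genes of members that spanned 1 log2 unit. Nlrp3, Casp1, Cd14, Mmp13 and Sprr1b were named after their values were seen. Il1f10, Krt10, Ly6g, Camp, Ngp, Mpo and Retnlg also fall outside that rule. The members and lists were chosen with earlier results of these data known.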

Additional observations from a re-analysis of the deposited data

Results flagged for a closer look

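Among the 4 arrays without IMQ, the Il1b level of 7.86 on KO_Allo lay far from the 3 others, which ranged from 4.39 to 4.96, by a gap test on the highest or lowest of 4 values. This test was applied to 24 sets of values, and by chance it marks about 1 set in 20. The IMQ difference of Il1b in the KO Allo pair minus that in the other 3 pairs was -6.70 log2 units, with -3.08 in the KO Allo pair against 2.93, 4.29 and 3.63 in the others (limma, adjusted p = 0.0613). The same value was -2.72 for Il33 (adjusted p = 0.195) and 0.69 for Il1r2 (adjusted p = 0.574). In all 3 genes the KO Allo pair had the opposite sign to each of the other 3 pairs, and in none did the tested difference pass the threshold.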

How the results depend on the processing

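Over the 4 pairs, 685 genes passed, 1028 without genes under the median level, 454 with B read as a second array of KO and 0 with all probe sets tested (limma; 5957 probe sets at an unadjusted p under 0.05). With 1 pair left out the count ranged from 0 (no WT pair; 3093 at an unadjusted p under 0.05) to 1307 (no KO Allo pair), with 2 without the KO B pair and 260 without the KO plain pair. Over the KO pairs, where 0 passed, 50 did with a trended prior and 0 to 299 with 1 pair left out. For the KO Allo pair minus the others, where 2 passed, 33 did with a trended prior, 0 with all probe sets (2940 unadjusted) and 0 to 24 with 1 pair left out. Of the members' 88 comparisons over the 4 pairs under an alternative, 75 kept direction and call, 7 lost a call, 4 gained one and 2 turned. With the mean of probe sets, Il1rap turned to 0.038 for KO minus WT and to 0.014 for the KO Allo pair minus the others. Leaving out 1 pair turned the sign of small values, with these ranges. Il1r1 ran from -0.12 to 0.27 over the 4 pairs, from -0.16 to 0.41 over the KO pairs and from -0.13 to 0.45 for KO minus WT. Il1b ran from -0.074 to 3.61 over the KO pairs. For KO minus WT, Il1a ran from -0.65 to 0.12, Il33 from -1.03 to 0.64, Il1rap from -0.18 to 0.073 and Il1r2 from -0.044 to 0.43. For the KO Allo pair minus the others, Il18 ran from -0.29 to 0.22 and Il1rap from -0.21 to 0.043. For the average level of the KO Allo arrays, Il33 ran from -0.38 to 0.028. Fewer arrays widen the spread by construction, and for the other changes the cause was not tested. The fit already pairs the arrays that differ in IMQ, and the labels give no replicate numbers for another block.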
